A study of Homo sapiens with 18 samples.

Results

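The data described here are the exon junction choices of SHEP.tet21n cells with MYCN on against the same cells with MYCN off, both given a control siRNA. SHEP.tet21n is a substrate-adherent neuroblastoma cell line that carries a MYCN cDNA repressed by doxycycline (Dox). The 3 MYCN on libraries came from cells treated with the vehicle DMSO, and the 3 MYCN off libraries from cells given 2 µg/mL Dox, so that loss of MYCN and the presence of Dox cannot be told apart. Both groups received the non-targeting siRNA (siControl). The other 12 of the 18 libraries came from the same MYCN on and MYCN off treatments with siSNRPD3 #1 or #2, siRNAs against SNRPD3. They are used for the spread and as further MYCN comparisons that share no library with this one. Whether same-numbered libraries were prepared together is not stated, so these comparisons need not be independent repeats. All libraries are of 1 engineered line, the study describes the replicates as biological, and the labels do not say whether they were separate cultures. PSI, the percentage of the junction reads of a cluster of overlapping introns that removed a given intron, was deposited for 233650 introns in 51819 clusters. Introns were taken where the mean PSI over the 6 control siRNA libraries was from 1% to 99% (0.01 to 0.99 as a fraction), which left 149277 introns in 43876 clusters and 14174 genes. PSI measures no gene expression, so neither the repression of MYCN nor the markers of the line could be checked in these values, and depth is unknown because the table holds no read numbers. A PSI is an average over all cells of a library, so a change within each cell and a change in the mix of cells cannot be told apart.

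MYCN is a transcription factor of the MYC family that is amplified in a group of neuroblastomas, where it drives growth, ribosome production and metabolism. MYC proteins also raise the transcription of genes for splicing factors and for the assembly of the spliceosome, the machine that removes introns. A cassette exon is included where both of its flanking introns are removed separately and skipped where 1 longer intron is removed, whereas a switch of first exon or last exon follows from the choice of promoter or of 3′ end.

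The exons below carry differences described here and are shown because they are short enough to see whole. Each is written 5′ to 3′ on the gene's strand from hg38, with the exon in capitals and 20 intron bases before and 10 after it in lower case. All end their upstream intron with ag and open their downstream intron with gt.
FAT1 cassette exon, 36 bases, minus strand, chr4:186590368-186590403: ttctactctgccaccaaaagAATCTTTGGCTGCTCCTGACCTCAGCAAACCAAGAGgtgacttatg
MAST2 cassette exon, 21 bases, plus strand, chr1:46000959-46000979: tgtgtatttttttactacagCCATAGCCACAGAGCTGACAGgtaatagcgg
SGCE cassette exon, 27 bases, minus strand, chr7:94599697-94599723: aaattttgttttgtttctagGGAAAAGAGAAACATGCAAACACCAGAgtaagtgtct
METTL26 cassette exon, 163 bases, minus strand, chr16:635612-635774: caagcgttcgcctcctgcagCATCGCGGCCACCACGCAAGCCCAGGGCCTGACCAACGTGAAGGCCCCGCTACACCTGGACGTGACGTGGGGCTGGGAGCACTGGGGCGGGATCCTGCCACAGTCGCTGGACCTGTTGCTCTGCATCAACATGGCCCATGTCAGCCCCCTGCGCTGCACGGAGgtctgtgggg
The FAT1, MAST2 and SGCE exons are coding and of a length that is a multiple of 3, so that the reading frame runs on whether or not they are used. The METTL26 exon, coding as well, leaves a remainder of 1 base.

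MYCN on and off cells differed in 102 of the 149277 introns (0.0683%) at a Benjamini-Hochberg adjusted p under 0.05 in limma. PSI was higher with MYCN in 38 and lower in 64. The called introns lay in 83 clusters and 72 genes, of which 52 are protein-coding and 18 are lncRNA genes, and 13 introns had no gene. The absolute PSI difference of the called introns had a median of 10.5 percentage points and ran from 1.96 to 96.1, against a median of 1.72 over all introns tested, and it was at least 10 points in 51 and under 5 points in 26. None of the 102 overlapped between the 3 MYCN on and the 3 MYCN off libraries, which was the case for 11.7% of all introns tested. At an unadjusted p under 0.05 there were 9969 introns. The count depends on the fit: it was 597 when only the 6 control siRNA libraries were fitted, of which 37 were among the 102. With 1 control siRNA library left out, from 50 to 68 of the 102 were called again. Of the 26 called introns named here, 17 kept their call whichever library was left out, and those of PAPPA2, RPS24, TERF1, FAM182B, IL17RE, SP140, ENSG00000223969, ENSG00000255320 and the ABLIM1 intron that rose lost it at least once.

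To name the kind of change, 30345 splicing events were built from annotated introns, and 17 (0.056%) were called, in 13 genes. These were 7 of 15396 cassette exons tested and 6 of 4142 first exons. The others were 2 of 3327 last exons, 1 of 3094 alternative 5′ sites and 1 of 4310 alternative 3′ sites. By introns or events together, 75 of 14190 genes (0.529%) were called, 10 of them by both. The event calls are fragile. All 17 were lost with at least 1 control siRNA library left out, and 3 of the 17 were called when only the 6 control siRNA libraries were fitted. Without MYCN on replicate 2, or without MYCN off replicate 1, 0 events were called by limma, with 2172 and 2355 at an unadjusted p under 0.05. Without MYCN on replicate 3 there was 1, without MYCN on replicate 1 or MYCN off replicate 2 there were 7, and without MYCN off replicate 3 there were 16. Of these calls, 0 were among the 17 without MYCN on replicate 3, 6 without MYCN on replicate 1, 1 without MYCN off replicate 2 and 9 without MYCN off replicate 3. Under a stricter definition, chosen after these calls were seen, 10 events were called, 9 of them among the 17. That definition drops alternative sites whose longer exon spans an annotated splice site, and first or last exons that are incomplete or also internal.

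Skipping of short coding exons was the change seen in the adhesion protein FAT1, an atypical cadherin, and in MAST2, a microtubule-associated serine/threonine kinase. Inclusion of the FAT1 exon was 27.4%, 31.5% and 30.5% in the MYCN off libraries and 14.7%, 11.7% and 10.3% in the MYCN on libraries. The groups stood well apart, and the mean fell by 17.6 percentage points, from 29.8% ± 2.13 to 12.2% ± 2.21 (SD, n = 3 each, as for every mean below; adjusted p = 0.0227). All 3 introns of this FAT1 event were called on their own, and the skipping intron rose from 53.0% to 77.6% PSI (adjusted p = 0.00153). Inclusion of the MAST2 exon was 40.8%, 49.2% and 54.7% with MYCN off and 23.0%, 21.4% and 18.3% with MYCN on, a difference of -27.3 points (adjusted p = 0.035). The MAST2 libraries with MYCN off were more spread than those with MYCN on, and no value was shared between the groups. With siSNRPD3 #1 and #2, inclusion was lower with MYCN by 16.6 and 15 points in FAT1 and by 20.4 and 21.8 points in MAST2. In limma the adjusted p of these differences was 0.0159 and 0.0767 in FAT1 and 0.132 and 0.117 in MAST2, so only FAT1 with #1 was called.

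The coding cassette exons of METTL26 and of IFT122, a component of the transport complex that moves cargo within cilia, were also included less with MYCN. METTL26 inclusion was 61.7%, 60.3% and 65.0% with MYCN off and 35.7%, 34.1% and 33.2% with MYCN on, the largest of the called cassette differences at -28.0 points (adjusted p = 0.0227). The IFT122 exon, of 147 bases on chromosome 3 (129464635 to 129464781), was at 92.3%, 97.2% and 94.7% with MYCN off and 81.2%, 81.4% and 82.5% with MYCN on (adjusted p = 0.0472). In IFT122 the call was lost under 7 of the 13 alternatives that kept all control siRNA libraries, the stricter event definition among them (adjusted p = 0.058). It was also lost with any 1 of the 6 control siRNA libraries left out. The 3 MYCN on libraries of IFT122 lay close together, below every MYCN off library.

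Inclusion rose with MYCN in SGCE, which encodes epsilon-sarcoglycan, and in the lncRNA A1BG-AS1. The SGCE exon was at 91.6%, 93.5% and 94.4% with MYCN off and 97.8%, 98.1% and 98.8% with MYCN on, a small gain of 5.08 points that was larger than the spread of either group (adjusted p = 0.0227). The alternative 5′ site and the alternative last exon called in SGCE use the same skipping intron and are the same change seen 3 times. With the SNRPD3 siRNAs the SGCE difference was 3.56 and 2.86 points, neither of them called (adjusted p = 0.139 and 0.274 in limma). In A1BG-AS1 the longer of 2 overlapping exons was at 80.2%, 71.4% and 86.1% with MYCN off and 99.8%, 99.7% and 99.7% with MYCN on (adjusted p = 0.035). Its shorter form and its first exon event share introns with it. The difference of the longer form was 0.457 points with siSNRPD3 #1 and 21.7 points with siSNRPD3 #2, neither of them called.

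**Figure D1:**
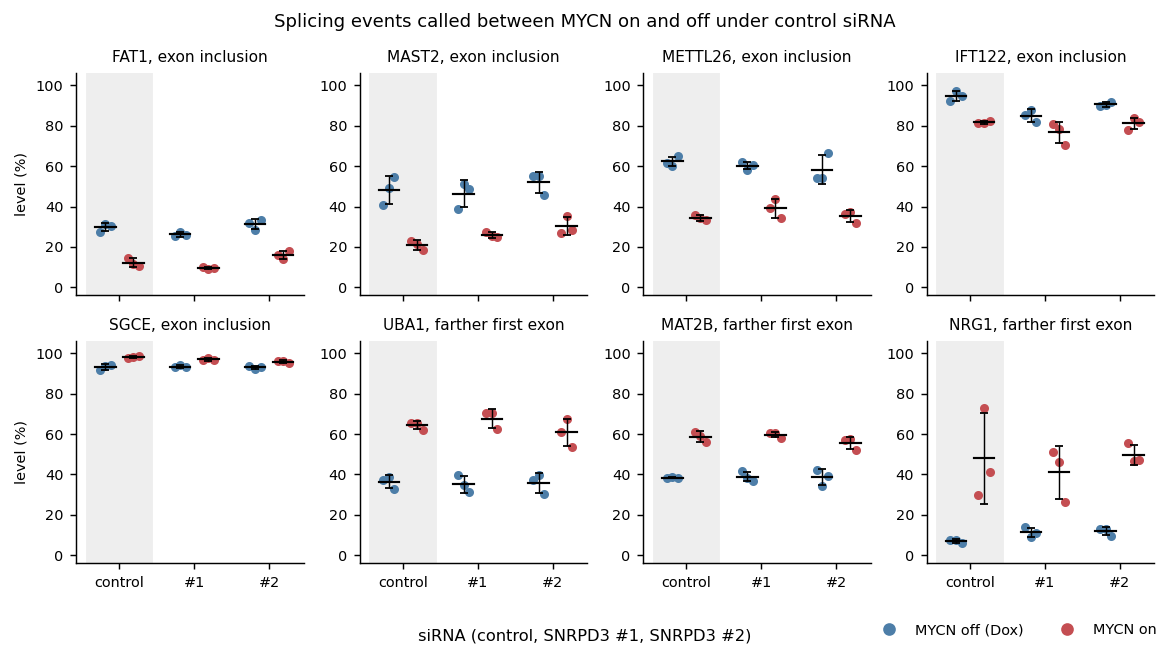
Level in percent of 8 called splicing events in each of the 18 libraries (points), with the mean and SD of each group of 3, by siRNA on the x axis. The control siRNA libraries, on the grey ground, are those compared in the calls, with the spread estimated over all 18. FAT1 inclusion goes from 29.8% with MYCN off to 12.2% with MYCN on, and NRG1 has MYCN on libraries spread from 29.6% to 73.0%.

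In COL5A1, the pro-alpha1 chain of type V collagen, a fibrillar collagen of the matrix, the cells with MYCN used the upstream of the adjacent 69-base exons more. The intron that joins the exon before them to the upstream exon had a PSI of 71.4%, 72.3% and 76.6% with MYCN off and 86.4%, 87.7% and 88.4% with MYCN on. The intron to the downstream exon is the other in this cluster and mirrored these values, at 26.6% and 12.5% on average (adjusted p = 0.00191 for both). The far side of the exons lies in a separate cluster, whose junctions are counted apart. There the share of the downstream exon was 24.4%, 24.8% and 20.1% with MYCN off and 10.0%, 11.3% and 9.59% with MYCN on, with an adjusted p of 0.0612 that missed the threshold. The intron that leaves the downstream exon, taken alone, went from 22.6% ± 2.42 to 10.1% ± 0.862 and was called (adjusted p = 0.0259). Both ends of the exon pair thus moved by a like amount. Since an annotated transcript holds both exons and the bases between them as 1 exon, the event table lists this choice as an alternative 3′ site, a name that the stricter definition drops. With the SNRPD3 siRNAs the upstream exon gained 12.6 and 13.6 points with MYCN (adjusted p = 0.00591 and 0.00587).

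Introns of PDK2, RPS24 and TERF1 were among those with the largest gain in PSI with MYCN. PDK2 is a kinase that inactivates pyruvate dehydrogenase, and its first annotated intron (chromosome 17, 50095554 to 50097422) was at 62.4%, 55.6% and 58.3% with MYCN off and 91.2%, 95.2% and 98.1% with MYCN on (adjusted p = 0.00808). An intron 5′ of it, with no annotated site, fell from 20.3% to 4.14% in turn. RPS24 is a protein of the small ribosomal subunit, and its intron that skips the 22-base exon near the end of the gene rose from 37.7% ± 2.6 to 59.4% ± 3.15 (adjusted p = 0.0438). Inclusion of that RPS24 exon was 42.3%, 45.9% and 47.7% against 25.9%, 27.8% and 22.9%, with an adjusted p of 0.0786 that missed the threshold. TERF1 binds telomere repeats, and the intron skipping its 60-base coding exon rose from 39.3% ± 6.51 to 60.6% ± 0.429 (adjusted p = 0.0266), while the inclusion of the exon itself went from 36.3%, 48.7% and 46.3% to 24.6%, 24.8% and 24.1% (adjusted p = 0.0612). For PDK2, RPS24 and TERF1 the difference was from 22.2 to 30.4 points with either SNRPD3 siRNA. In limma the adjusted p with #1 and #2 was 0.0349 and 0.0772 in PDK2, 0.0574 and 0.053 in RPS24 and 0.016 and 0.0329 in TERF1. Only TERF1 was thus called with both, and RPS24 with neither. The RPS24 intron call was lost with any 1 of the 6 control siRNA libraries left out, and that of TERF1 with 5 of the 6, while that of PDK2 was kept with each.

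First exons that lie farther from the shared splice site were used more with MYCN in 5 of the 6 first exon calls. The stricter event definition kept the pairs of MAT2B, UBA1 and NRG1 as first exons. It dropped those of SPRED2, DPYSL3 and A1BG-AS1. MAT2B, the regulatory subunit of the enzyme that makes S-adenosylmethionine, used its upstream first exon (163503263 to 163503424, chromosome 5) at 38.4%, 38.8% and 38% with MYCN off and 61.0%, 59.2% and 55.8% with MYCN on (adjusted p = 0.035). The order of the MAT2B first exons was thus reversed, with the upstream one at 38.4% ± 0.445 of the pair without MYCN and 58.7% ± 2.62 with it. UBA1, the enzyme that activates ubiquitin, moved likewise from 37.3%, 38.9% and 32.8% to 65.5%, 65.5% and 62.1% (adjusted p = 0.0355). NRG1, a ligand of ErbB receptors, had 7.44%, 7.59% and 6.12% of its upstream first exon with MYCN off and 29.6%, 73.0% and 41.2% with MYCN on (adjusted p = 0.0366). The NRG1 groups were separate, but the MYCN on libraries were widely spread (SD 22.5 points).

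SPRED2, which restrains Ras-ERK signalling, and DPYSL3, a cytoskeletal protein of neurons, were called outside the rule for named genes and were named after their values were seen. The upstream SPRED2 first exon was at 92.6%, 91.4% and 93.6% with MYCN off and 98.6%, 98.2% and 97.8% with MYCN on, and that of DPYSL3 at 87.3%, 91.2% and 90.9% and at 99%, 98.5% and 97.7% (adjusted p = 0.0227 for each). ABLIM1, an actin-binding LIM protein, was called by a pair of introns that end at the same acceptor. The intron from 114491879 to 114526659 on chromosome 10 rose from 28.2% ± 2.35 to 52.5% ± 4.52, and the longer one to 114545004 fell from 62.8% ± 3.09 to 34.5% ± 3.85 (adjusted p = 0.0269 and 0.00694). In KIAA1217 the farther last exon went from 8.03%, 12.5% and 7.94% to 38.9%, 25.0% and 34.7% (adjusted p = 0.0366). The stricter definition, which drops first or last exons that are incomplete or also internal, dropped the SPRED2, DPYSL3 and KIAA1217 pairs.

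In SLIT2, a guidance ligand of axons, an annotated coding intron took nearly all junction reads of its cluster without MYCN and a smaller share with MYCN. Its PSI was 99.9% in each MYCN off library and 77.7%, 72.4% and 85.8% with MYCN on (adjusted p = 0.000313), with differences of -17.0 and -14.3 points under the SNRPD3 siRNAs. Of the other introns named for the largest losses, that of IL17RE, a receptor subunit of the interleukin 17 family, went from 23.0%, 17.2% and 49.1% to 0.437%, 1.08% and 0.287%, and that of SP140, a nuclear body protein, from 32.8%, 3.75% and 16.6% to 0.379%, 0.42% and 0.296%. MYCN off libraries were widely spread in both genes. The IL17RE call was lost under 5 of 11 alternatives that kept all control siRNA libraries and in 5 of the 6 fits with a library left out, and the SP140 call under 8 of 11 and in 5 of 6. With siSNRPD3 #1 and #2 the difference was -10.6 and 17 points in IL17RE and -13.5 and -0.847 points in SP140, none of them called. The lncRNA introns of ENSG00000223969 and ENSG00000234698 fell by 33.3 and 32.1 points. With siSNRPD3 #1 and #2 the differences were -25.5 and -19.4 points in the former and -15 and 7.44 points in the latter, none of them called. The NBPF14 intron fell by 20.8 points, but NBPF genes are near-identical copies, so that reads may be shared among them. Among the gains, PAPPA2, a protease of insulin-like growth factor binding proteins, and the lncRNA FAM182B went from means of 0.137% and 0.173% to 34.8% ± 11.6 and 18.5% ± 5.98. Neither gain appeared with an SNRPD3 siRNA, where PAPPA2 differed by -2.14 and -1.36 points. In PAPPA2, 1 MYCN off library stood at 6.81% with siSNRPD3 #1 and 1 at 4.41% with #2, above the others. The limma interaction was called in neither gene (adjusted p = 0.159 and 0.189 in PAPPA2, 0.263 and 0.762 in FAM182B).

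The MYCN differences with siSNRPD3 #1 and #2 show which of the 102 introns recur. Those 12 libraries do not enter the differences with control siRNA, but they do enter the estimate of the spread and so have a part in which introns were called. Same-numbered libraries of 1 MYCN state can also move together across siRNAs. Picked to show this, the farther CAST first exon with MYCN off was at 65.6%, 63.1% and 75.8% with control siRNA. It was at 66.5%, 64.8% and 74.4% with #1 and at 65.0%, 63.2% and 75.5% with #2. How common this is was not tested, so the comparisons are not taken as independent repeats. The sign was kept in 76 (74.5%) with #1, in 70 (68.6%) with #2 and in 61 (59.8%) with both, against 55.8%, 57.1% and 35.1% of all introns tested. At an adjusted p under 0.05 with the same sign there were 25, 17 and, with both, 14. Over all introns tested, 46 (0.0308%) were called with #1 and 27 (0.0181%) with #2. Of the 54 called introns that are annotated, 39 (72.2%) kept their sign with both siRNAs, beside 36.5% of all annotated introns tested. Of the 48 that are not annotated, 22 (45.8%) did, beside 32% of all such introns tested. The difference between these shares was not tested.

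Among called introns, 52.9% were annotated and 16.7% had neither splice site annotated, against 68.2% and 8.02% of all introns tested. Exactly repeated values among the 6 control siRNA libraries, which may stand for libraries without reads and need not be measured levels, were found in 9743 introns tested (6.53%) and in 7 of those called (6.86%). The largest of all differences was of this kind. A pair of introns with no annotated site on an unplaced scaffold, GL000214v1, was at 98% and 2.05% in all MYCN off libraries and at 1.87% and 98.1% in all MYCN on libraries, and both were at 44.4% and 55.6% in every library with siSNRPD3 #2. An intron of the lncRNA ENSG00000255320 was at 1.51%, 1.51% and 47.9% with MYCN off and at 98.4%, 98% and 98.4% with MYCN on, and 47.9% also came back in the siSNRPD3 libraries. These are given as deposited, and what part the repeated values had in the calls was tested by leaving such introns out, which gave 97 calls.

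**Figure D2:**
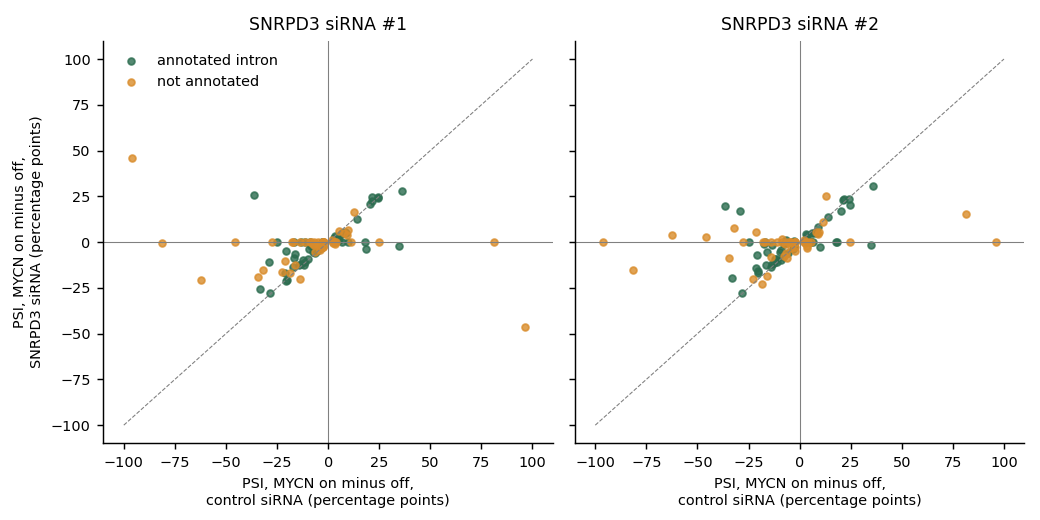
PSI difference of MYCN on minus off in percentage points for the called introns, with control siRNA on the x axis and with an SNRPD3 siRNA on the y axis, coloured by annotation. Points on the dashed line have equal differences. Of all 102 called introns, 61 keep their sign with both siRNAs.

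The MYCN difference itself depended on the siRNA in a few introns. The interaction was called in 22 introns (0.0147%) with siSNRPD3 #1 and in 18 (0.0121%) with #2, of which 19 and 18 were among the 102. This test uses the same control siRNA libraries as the calls and is not independent of them. Of the annotated called introns, 5 of 54 had an interaction with either siRNA, and of the others 17 of 48. LRP1B, a receptor of the LDL receptor family, had an annotated intron at 86.4%, 80.3% and 79.1% in the MYCN off libraries and at 99.7% to 99.8% in the MYCN on libraries, and its mean was 99.8% in every group with an SNRPD3 siRNA. The 3 MYCN off control libraries were the ones that stood apart. An intron of LCA5L was at 12.7%, 21.8% and 16.3% in those same libraries and at or under 0.331% in the MYCN on ones. PPP1R10, a nuclear targeting subunit of protein phosphatase 1, was named after its values were seen. Its annotated intron was at 99.7% in each MYCN off library and at 71.0%, 76.9% and 76.9% with MYCN on, with a repeated value among the latter, while means were from 99.5% to 99.7% with the SNRPD3 siRNAs. In the lncRNA LINC01524 the direction was the opposite, from 37.4% ± 12 to 0.914% ± 0.511 with control siRNA, and 25.7 and 19.7 points higher with MYCN under siSNRPD3 #1 and #2, differences that were not called there (adjusted p = 0.493 and 0.697). No event had an interaction at an adjusted p under 0.05 in limma.

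**Figure D3:**
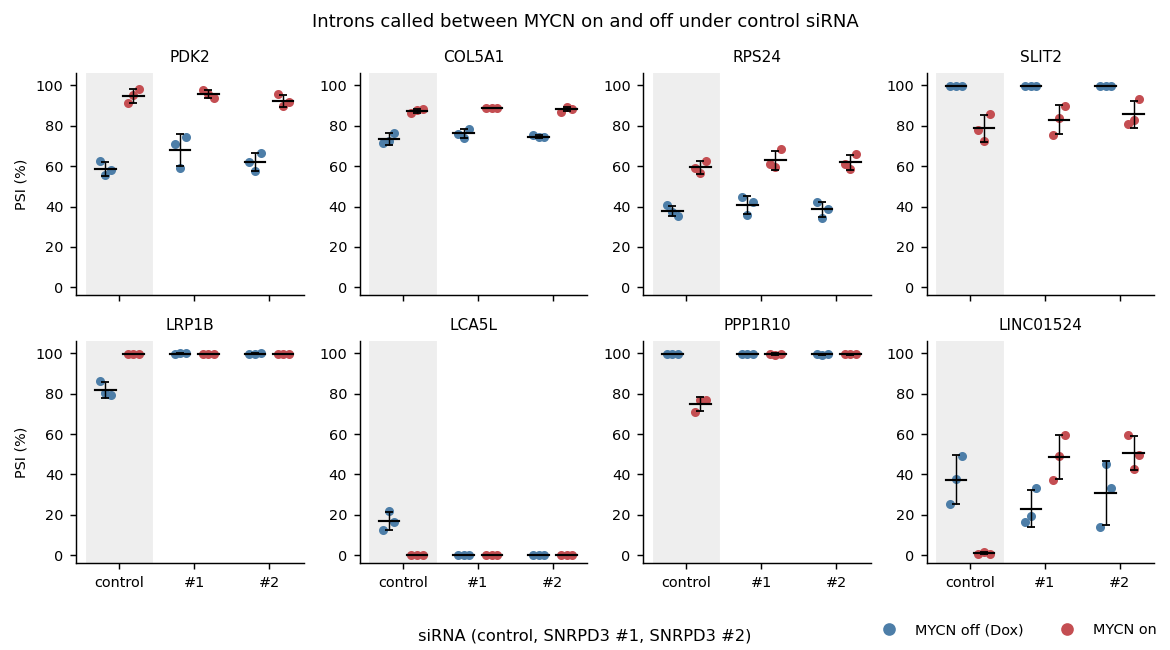
PSI in percent of 8 called introns in each library (points) with the mean and SD of each group of 3, by siRNA on the x axis. The introns were picked to show both patterns. In the upper row the MYCN on and off libraries differ under all siRNAs, and in the lower row the control siRNA groups stand apart in a way the SNRPD3 siRNA groups do not share, as in LRP1B with 81.9% against 99.8%.

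Below the level of single calls, cassette exons leaned to skipping. Of 15396 cassette exons, 868 (5.64%) had lower and 479 (3.11%) had higher inclusion with MYCN at an unadjusted p under 0.05, so that 64.4% of these were lower, beside 55.5% of all cassette exons tested. The difference of the mean inclusion per library was small, from 59.78% ± 0.205 with MYCN off to 59.23% ± 0.446 with MYCN on, and did not exceed what 3 libraries against 3 allow (p = 0.2 in a two-sided exact permutation test, which cannot go below 0.1). Cassette exons at an unadjusted p under 0.05 in all 3 MYCN comparisons and with 1 sign numbered 243 lower and 42 higher. This set was chosen with its values seen, has no test of its own and need not come from independent repeats. A lean to lower inclusion was not confined to it. Over all cassette exons tested the median difference was -0.255 points with control siRNA and -0.831 and -0.612 points with siSNRPD3 #1 and #2. Mean inclusion per library went from 58.57% to 57.07% with MYCN under #1 and from 58.86% to 57.73% under #2. Replicate 3 of MYCN on had the lowest mean cassette inclusion of its group under each siRNA, at 58.77% beside 59.67% and 59.25% with control siRNA, 55.43% beside 57.87% and 57.92% with siSNRPD3 #1 and 56.6% beside 57.99% and 58.6% with #2. Without this replicate of the SNRPD3 siRNA groups there were 179 lower and 40 higher, and without it in all 3 siRNA groups 166 and 44. For first exons the count was 72 for the farther and 25 for the nearer exon, of 4142 tested. Under the stricter definition it was 43 and 16, of 2016. Last exons had 28 and 20 of 3327, which became 3 and 7 of 702. Alternative 5′ sites had 13 with more of the longer exon and 22 with less, of 3094, which became 11 and 2 of 2566. For last exons and alternative 5′ sites the balance turned with the definition. Alternative 3′ sites had 17 and 12 of 4310, or 12 and 3 of 3832, and mutually exclusive exons 4 and 2 of 76 under either. Of all first exon events tested, 45.2% had less of the farther exon with MYCN. The share that was lower was 47.4% for last exons, 50.4% for alternative 5′ sites, 49.6% for alternative 3′ sites and 43.4% for exclusive exons. Mean levels of the other 5 types differed by -0.171 to 1.04 points (exact permutation p from 0.3 to 1).

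**Figure D4:**
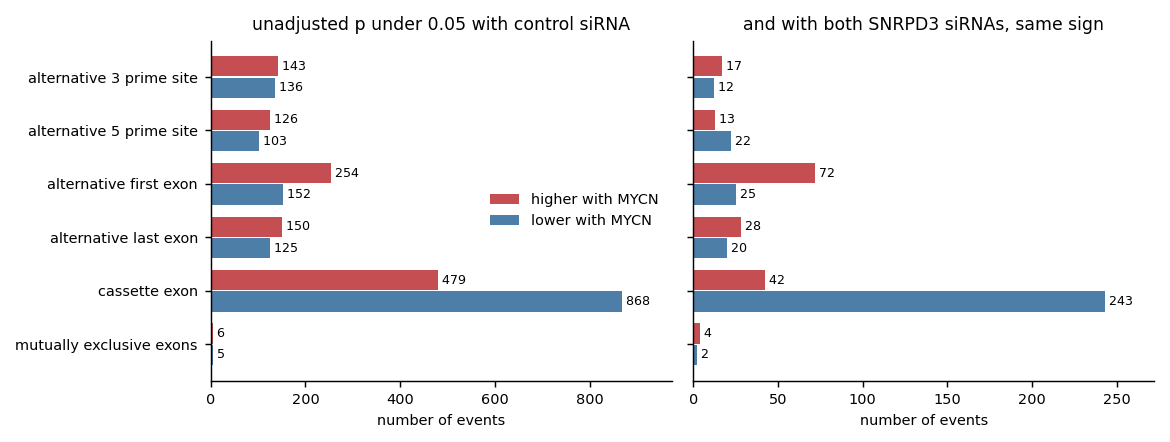
Number of events by type and direction at an unadjusted p under 0.05 with control siRNA (left) and, in addition, with both SNRPD3 siRNAs and the same sign (right). Higher means more inclusion, more of the longer exon, the farther first or last exon, or the upstream exclusive exon. Cassette exons have 243 lower and 42 higher on the right.

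The 243 recurrent exons with lower inclusion lay in 219 genes and were coding in 79.4%, against 53.9% of all cassette exons tested. Of the coding ones 68.4% had a length that is a multiple of 3, against 53.3%. Exons of up to 30 bases made up 7.41% of them and 2.44% of all. Among the 42 with higher inclusion, 52.4% were coding, 77.3% of the coding ones were a multiple of 3, and 7.14% had up to 30 bases. The median difference of the 243 was -6.84 points with control siRNA and -8.17 and -8.02 with the SNRPD3 siRNAs. That of the 42 was 7.22, 7.26 and 7.16 points. These shares describe a set that was picked by its values. The sets are also not matched for level. Mean inclusion with MYCN off and control siRNA was 70.8% in the 243 and 33.1% in the 42, beside 59.8% in all cassette exons tested. Examples are AFDN, an adaptor of adherens junctions, whose 21-base exon was at 51.6%, 61.5% and 60.7% and at 36.2%, 40.5% and 35.8%, and the kinesin KIF21A, whose 21-base exon was at 47.0%, 45.1% and 47.5% and at 35.3%, 27.8% and 25.1%. SNX14, a sorting nexin, had a 27-base exon at 54.6%, 63.0% and 54.8% against 36.7%, 41.1% and 25.8%. The adjusted p of AFDN, KIF21A and SNX14 was 0.157, 0.198 and 0.244, so none was called. In the other direction, the 270-base exon of FN1, fibronectin, was at 71.8%, 71.0% and 58.2% and at 79.5%, 78.6% and 74.7% (adjusted p = 0.546).

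The lists of genes by function held few calls. Each list is a choice of genes and not the whole class. FAT1, ABLIM1, DPYSL3 and SLIT2, which were called, are on none of them. PDK2 was the 1 of 25 glycolysis and pyruvate genes tested (4%). COL5A1 was the 1 of 53 genes on a list of adhesion and cytoskeleton splice switches (1.89%). Over all genes the share was 0.529%. In limma, no intron or event was called among 23 SR proteins and related regulators, 27 hnRNP and PTB genes, 36 snRNP and U2AF genes, 12 CLK, SRPK and DYRK kinases, 19 genes of the MYC and MAX network, 11 arginine methyltransferases and partners, 56 cyclins, CDKs and mitotic genes, 37 apoptosis regulators, 35 ribosome biogenesis genes, 36 neuronal and neural crest genes and 18 nonsense-mediated decay factors. Introns at an unadjusted p under 0.05 were 12.5% of those in the adhesion list, 10.3% in glycolysis, 8.28% in the neuronal list, 5.74% in SR proteins, 4.76% in hnRNPs, 6.25% in snRNP genes, 3.73% in the kinases, 4.58% in the MYC network and in ribosome biogenesis, 6.14% in the methyltransferases, 5.73% in apoptosis, 5.34% in decay factors and 3.35% in cyclins and CDKs. Over all introns with a gene it was 6.67%. The median absolute PSI difference was 1.27, 1.3 and 1.36 points in the adhesion, glycolysis and neuronal lists, beside 1.6 over all introns with a gene. The lists were chosen with earlier results of these data known, and introns of 1 cluster are not separate measurements. These shares are a description without a test.

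By the rule for lists without a call, the feature with the smallest p is given for all but the decay factors. HNRNPA2B1, an RNA-binding protein of the hnRNP family, had a 3′ UTR intron at 88.4%, 86.8% and 87.7% with MYCN off and at 91.2%, 90.8% and 91.5% with MYCN on, a gain of 3.55 points without overlap (adjusted p = 0.152). CFLAR, an inhibitor of caspase-8 activation, used its farther first exon at 70.2% ± 4.37 and 84.4% ± 3.34 (adjusted p = 0.198). DDX10, an RNA helicase of ribosome assembly, had an intron at 9.55% ± 1.45 and 1.31% ± 0.916 (adjusted p = 0.0783). An intron of EPB41L2, a membrane skeleton protein, was at 4.97% ± 0.798 and 2.23% ± 0.325 (adjusted p = 0.143). An intron of the splicing factor PRPF38A was at 95.3% ± 1.26 and 91.6% ± 0.595 (adjusted p = 0.385). In LUC7L, MLX, RIOK1, CDK10 and DYRK2 the differences were from -2.49 to 2.99 points, with adjusted p of 0.282, 0.457, 0.237, 0.25 and 0.461. The RIOK1 and DYRK2 introns have only 1 annotated splice site, and the CDK10 intron joins annotated sites in an unannotated pair. With MYCN on, the DYRK2 intron was at 0.0237% on average.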

How the data were processed

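RNA-seq was from 18 SHEP.tet21n libraries, 6 groups of 3. The authors aligned stranded poly(A) reads to hg38 with STAR (2.5.0a in the submitters' notes, with SAMtools 1.3.1) and counted introns by leafcutter. Each of the 18 deposited columns holds, for 1 library, the fraction that an intron takes of its cluster, as the authors computed it. A deposited table of the authors' own comparisons (FDR and delta PSI) was not used.

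Introns were matched to GENCODE release 44. PSI or event level v became log2((v + 0.01)/(1 - v + 0.01)), and limma (3.58.1, R 4.3.3; lmFit, eBayes) was fitted over 18 libraries with a mean per group and no covariate, adjusted by Benjamini-Hochberg within each comparison. Events used at least 10% of their cluster. Residual and prior degrees of freedom were 12 and 1.17 for introns and 12 and 1.61 for events. Event levels per library were compared by exact permutation in scipy 1.17.1 (Python 3.11.15). The fit was also run on simulated data, with the residuals of each intron shuffled among the 18 libraries. Shuffling removes any correlation between libraries, so the simulation cannot show what such correlation does to the calls. In limma a p-value sets a difference against the spread among replicate libraries, all of 1 line.

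Named genes are, 1 per gene, the 10 called introns with the largest gain and the 10 with the largest loss that had both sites annotated, 6 different values and no overlap, then the largest called events by type, up to 4 called genes of each list or else its smallest p, and the 3 largest called introns with a repeated value. Members and lists were chosen with earlier results of these data known. The stricter event definition was set after the events called under the design's definition had been seen. Deviations from the group mean in same-numbered MYCN on and off control siRNA libraries correlated at -0.0174, 0.0046 and -0.0328. Replicate numbers were therefore not taken as pairs. Correlation between siRNAs within a MYCN state was not measured, and the fit takes the 18 libraries as independent. Alternatives were a replicate block, a fit of the 6 control siRNA libraries, other offsets, the fraction scale, other filters and thresholds, eBayes options and each library left out. Introns of MYCN and SNRPD3, and 1 gene that the rule names among the decay factors, are not reported here.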

Additional observations from a re-analysis of the deposited data

Results flagged for a closer look

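The MYCN difference with an SNRPD3 siRNA differed from that with control siRNA, by the interaction term in limma, in 7 of the introns named. In LRP1B (intron at 140908078) the adjusted p of the interaction was 2.87e-06 with siSNRPD3 #1 and 3.3e-06 with #2, and in LCA5L (39423491) 1e-05 and 7.78e-06. Both PPP1R10 introns, which share a cluster and mirror each other, had 8.63e-06 and 3.87e-06. LINC01524 (52539062) had 0.0154 and 0.0297, with the sign reversed between control and SNRPD3 siRNAs. The pair of introns on the unplaced scaffold GL000214v1 had 0.016 each with siSNRPD3 #1, and its values are repeated exactly within groups. These introns were called on the control siRNA libraries that also enter the interaction.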

How the results depend on the processing

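Beside 102 introns, 72 genes and 17 events, fitting only the 6 control siRNA libraries gave 597, 402 and 80, a mean PSI of 5% to 95% gave 63 introns and 44 genes, and an adjusted p under 0.01 gave 46 introns, 35 genes and 0 events (2547 events at an unadjusted p under 0.05). Events numbered 30 on the fraction scale and 10 under the stricter definition, which was chosen after seeing the data. With each control siRNA library left out, introns ran from 75 to 112, genes from 55 to 81 and events from 0 to 16. Called introns that kept their sign with both SNRPD3 siRNAs numbered 61, 26 at an adjusted p under 0.01, and 35 to 50 with a library left out, with 35 without MYCN on replicate 2 and 38 without MYCN on replicate 3. Interactions with siSNRPD3 #1 and #2, 22 and 18, became 35 and 34 with an offset of 0.001, 10 and 11 with 0.05, 4 and 4 on the fraction scale, 37 and 30 without a filter on the mean, 14 with #1 at an adjusted p under 0.01, 11 with #2 at a mean of 5% to 95%, and 30 to 52 and 27 to 46 with a library left out, of which 52 and 41 were without MYCN on replicate 3, 51 and 46 without MYCN off replicate 1, 36 and 35 without MYCN off replicate 3, and, with #2, 35 without MYCN on replicate 1 and 32 without MYCN off replicate 2. The difference in mean level turned for last exons without repeated values (-0.00775 in place of 0.0859 points), and ran from -0.0754 (without MYCN on replicate 3) to 0.199 points with a library left out. For alternative 3′ sites it ran from -0.0399 to 0.222 in place of 0.0501, below 0 without MYCN off replicate 1 or 2, for cassette exons from -0.771 to -0.325, for first exons from 0.356 to 0.854, for alternative 5′ sites from -0.297 to -0.0446 and for mutually exclusive exons from 0.584 to 1.76. The cause of these shifts was not tested.

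With the replicate number as a block, 100 introns (79 of the 102 among them), 72 genes and 28 events (all 17 among them) were called, the interactions were 15 and 14, and 5 of the 26 called introns named were not called. Numbers alone did not pair the MYCN on with the MYCN off control siRNA libraries. Of the named features that were called, 26 introns and 17 events, none changed sign under these alternatives, but many lost their call. With only the 6 control siRNA libraries 15 introns and 14 events did, at an adjusted p under 0.01 11 and 17, on the fraction scale 6 and 8, and with a library left out 6 to 9 and 8 to 17. The counts of recurrent cassette exons without MYCN on replicate 3, chosen after seeing the data, kept more lower than higher. Depth is unknown, so a PSI near 0% or 100% may rest on few reads.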
